A study of Mus musculus with 22 samples.

Results

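Interferon-stimulated genes are the genes that cells switch on after they sense interferons, the secreted proteins that signal infection or foreign nucleic acid. The set described here holds 34 of them, of 48440 genes counted. They were listed by symbol, and every one passed the filter on low counts, with 18929 genes in all. The list is one of names, with no threshold on measured values. It holds 27 members known chiefly from the response to type I interferons, of which 8 are sensors and regulators and 19 are antiviral effectors. The other 7 are GTPases that are best known as targets of interferon gamma, namely Gbp2, Gbp3, Gbp5, Gbp7, Igtp, Irgm1 and Iigp1.

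RNA was measured in 22 libraries from fresh-frozen mouse tumours with a C57BL strain label. SS18-SSX+/- tumours carry the gene fusion of synovial sarcoma and came as 3 libraries titled Myf5 (N381, N428, N460) and 3 whose titles state no Cre (A, B, N2). Tumours labelled SNF5-/- lacked Smarcb1, a subunit of the BAF chromatin remodelling complex, and are called Snf5-null. They came as 5 libraries with TATCre (N1, N49, N43L, N43R, N51) and 3 with Myf5Cre (N30, N31, N33). Combined tumours carried the fusion and lacked Smarcb1, with 4 TATCre libraries (N49, 78774, 78777, 78780) and 4 Myf5Cre libraries (N1, N2, N3, N4). Myf5Cre is Cre recombinase driven by the Myf5 gene of muscle precursors, so recombination starts in that lineage. TATCre is a cell-entering Cre protein, and the labels do not name the cells it reached. No library analysed here came from normal tissue, and the labels give no ages. N43L and N43R share a tag, and whether each library came from its own animal is left unsaid in the labels. The p-values then cover the spread among libraries only, which may be technical.

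Total counts ran from 8642648 to 25177722 per library. Smarcb1 was at 47.14 to 111.3 counts per 1000000 (CPM) in SS18-SSX libraries, 10.6 to 26.93 in Snf5-null libraries and 0.909 to 3.661 in combined libraries, lowest where its loss was labelled. Tle1, a marker used for synovial sarcoma, was at 206.9 to 397.8, 27.47 to 46.73 and 159.1 to 221.1 CPM in the same order. The number series in the sample descriptions was 13879 for each Snf5-null and combined library and 11264 or 11361 for the SS18-SSX libraries. Genotype SS18-SSX and its series therefore cannot be told apart, while the combined and Snf5-null libraries share 1 series. Libraries N381 and A stood apart among SS18-SSX tumours: N381 was highest of its group for 33 of the 34 members and A for 31. The summed CPM of 5 skeletal muscle markers was 1996 in N381 and 4648 in A, against 1.131 to 120.6 in the other SS18-SSX libraries. That of 6 B and plasma cell markers was 583.1 and 403.7, against at most 8.492. The part of these cells in the results was not tested. The counts of members in the genotype comparisons are also given without each of the 2 libraries. Counts for the pathway lists and cell markers are not. Some members are less certain as genes: the sources used here do not state a strand setting for the counting, and Dhx58, Irf1, Irf7, Usp18, Oasl1, Gbp2 and Ifi35 overlap an exon on the other strand. Irf9, Parp14, Igtp and Gbp7 overlap another gene on their own strand. Gbp7 shares 12.7%, Igtp 11.8%, Ifi35 10.4% and Ifit1 7.13% of their 50-base stretches with other genes, and Ifit3 and Oas1a share more, as given below.

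As background, type I interferons act through the receptor chains Ifnar1 and Ifnar2 and the kinases Jak1 and Tyk2. The transcription factor complex they activate, which contains Stat2 and Irf9, binds the interferon-stimulated response element. Interferon gamma acts through Ifngr1 and Ifngr2, and the kinases Jak1 and Jak2, and its target promoters can carry the gamma-activated site. The programs overlap: Gbp genes also answer type I interferon, and Irf1, a regulator counted here with the type I members, is a direct interferon gamma target. In tumours the transcripts may come from cancer cells or from immune cells within the tissue, and in bulk RNA fewer cells of a type and less RNA per cell cannot be told apart.

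The promoters of Ifit3, Oas3, Oas1a, Gbp2, Gbp5 and Igtp are shown, and each held a response element core. Oas1a, Gbp5 and Igtp also held a gamma-activated site, while Ifit3, Oas3 and Gbp2 held none. Promoters without a core, such as that of Irf7, are left out, so the sequences do not show how common the core is. The sequences are from RefSeq and GRCm38.p6 (the assembly of mm10), the 250 bases before the RefSeq start, 5′ to 3′ on the gene's strand. Capitals mark the response element core GAAANNGAAA or its reverse complement, and the gamma-activated site TTCNNNGAA, which reads alike on both strands.

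Ifit3, chr19:34583279-34583528, plus strand: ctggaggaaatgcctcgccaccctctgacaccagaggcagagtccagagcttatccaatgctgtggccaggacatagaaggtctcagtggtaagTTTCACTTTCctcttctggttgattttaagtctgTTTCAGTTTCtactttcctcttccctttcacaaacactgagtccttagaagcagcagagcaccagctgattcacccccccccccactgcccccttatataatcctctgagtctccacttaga
Oas3, chr5:120777660-120777909, minus strand: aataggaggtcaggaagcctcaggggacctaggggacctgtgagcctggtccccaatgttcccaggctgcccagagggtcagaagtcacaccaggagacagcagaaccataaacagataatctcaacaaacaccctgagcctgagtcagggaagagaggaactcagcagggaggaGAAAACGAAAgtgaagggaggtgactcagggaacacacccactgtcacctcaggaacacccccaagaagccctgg
Oas1a, chr5:120907526-120907775, minus strand: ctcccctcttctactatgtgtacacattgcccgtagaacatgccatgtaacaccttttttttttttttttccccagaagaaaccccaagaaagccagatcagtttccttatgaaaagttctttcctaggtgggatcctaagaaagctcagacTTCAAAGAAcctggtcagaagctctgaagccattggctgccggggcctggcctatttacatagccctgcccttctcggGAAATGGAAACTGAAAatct
Gbp2, chr3:142620413-142620662, plus strand: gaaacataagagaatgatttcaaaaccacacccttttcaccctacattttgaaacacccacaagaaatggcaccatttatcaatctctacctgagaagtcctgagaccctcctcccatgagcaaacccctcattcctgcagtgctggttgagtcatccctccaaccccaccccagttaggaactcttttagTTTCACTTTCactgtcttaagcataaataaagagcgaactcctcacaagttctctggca
Gbp5, chr3:142496684-142496933, plus strand: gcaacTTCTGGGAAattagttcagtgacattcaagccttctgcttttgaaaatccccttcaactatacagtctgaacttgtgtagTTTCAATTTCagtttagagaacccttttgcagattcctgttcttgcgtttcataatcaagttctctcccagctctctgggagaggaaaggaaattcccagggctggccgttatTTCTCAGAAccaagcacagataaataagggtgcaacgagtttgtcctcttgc
Igtp, chr11:58199306-58199555, plus strand: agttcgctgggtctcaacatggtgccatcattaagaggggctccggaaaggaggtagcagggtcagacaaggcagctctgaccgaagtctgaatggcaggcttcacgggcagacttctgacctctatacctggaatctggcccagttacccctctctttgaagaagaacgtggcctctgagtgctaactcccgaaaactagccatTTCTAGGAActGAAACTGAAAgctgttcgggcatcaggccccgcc

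Ifit3 held 2 response element cores, both as the reverse complement, and Oas3 held 1 on its own strand. In Oas1a 2 cores overlap by 4 bases and end 4 bases before the start. Gbp2 held 1 core and no gamma-activated site, Gbp5 held 1 core and 2 sites, and Igtp held 1 of each, separated by 2 bases. The RefSeq starts of Gbp5 and Gbp2 lie inside their GENCODE genes (chr3:142493978-142522344 and chr3:142620602-142638008). Their cores lie inside those genes too, so they are not upstream of the GENCODE start. The RefSeq start of Oas3 lies just inside the edge of its GENCODE gene. Over windows of 300 bases (250 before and 50 after the start), RefSeq promoters were found for 25 of the 34 members, 29 promoters in all. The core was present in 15 of the 29 (51.7%) against 3.44% of 32851 promoters, and the gamma-activated site in 8 (27.6%) against 8.3%. By class, 9 of 22 type I promoters (40.9%) and 6 of 7 GTPase promoters (85.7%) held a core, and 5 (22.7%) and 3 (42.9%) held a gamma-activated site. The 7 GTPase promoters came from 6 genes, and each of the 6 genes had a core. Gbp3 had 2 promoters, 1 of them without a core, and no promoter was found for Iigp1. The 22 type I promoters came from 19 genes, 9 of them with a core. A match describes letters and not binding, and 6 GTPase promoters held the response element core where 3 held the gamma-activated site.

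**Figure D1:**
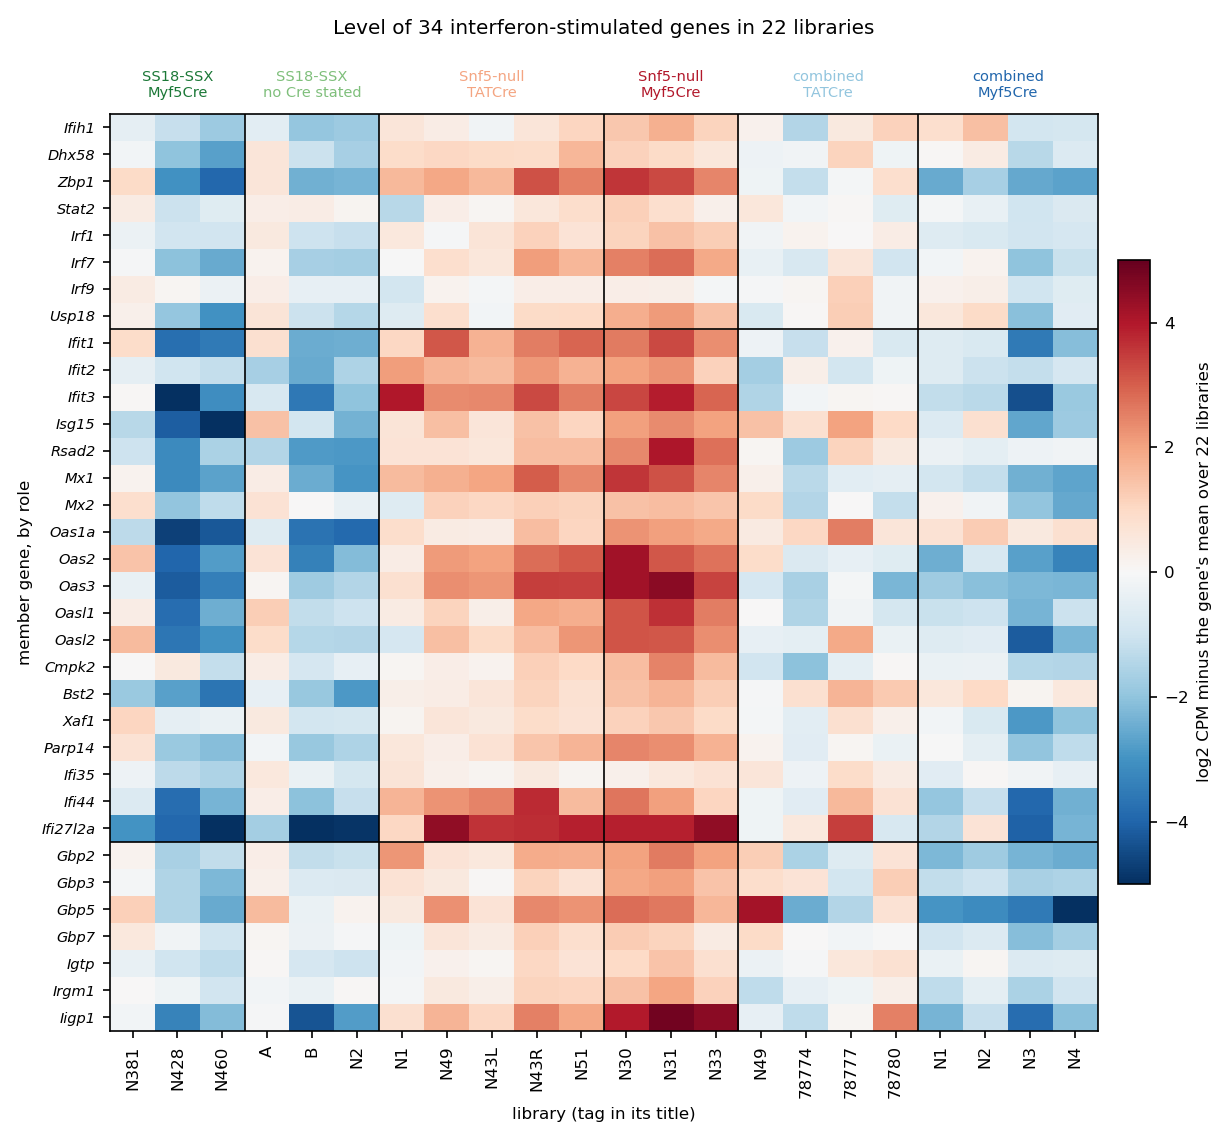
Level of the 34 members (rows, by role) in 22 libraries (columns, by group). Colour is log2 CPM minus the gene's mean over the libraries, clipped at 5 above and below. The 8 Snf5-null libraries are red for most members, and in the SS18-SSX groups N381 and A are paler than the others.

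Most members were lower when the fusion was present together with loss of Smarcb1 than with loss of Smarcb1 alone. In combined against Snf5-null tumours 27 of 34 members fell and 0 rose (edgeR's quasi-likelihood test across all genes, Benjamini-Hochberg adjusted p under 0.05), where 20.5% of all genes tested fell and 29.1% rose. No member rose and 27 fell at an unadjusted p under 0.05, which 10661 of all 18929 genes passed in either direction. DESeq2 called 0 members higher and 29 lower, against 5033 and 4527 of 18749 genes. The median log2 fold change was -2.05 over the members and 0.23 over all genes. By class, 20 of 27 type I members fell with a median of -2.06, and 7 of 7 GTPases fell with a median of -1.77. Without library N381 the count was 29 and without A it was 28.

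Among the sensors and regulators, 5 of 8 fell. Zbp1, a sensor of left-handed nucleic acid that can trigger necroptosis, was at 10.29, 18.94 and 40.27 CPM (lowest, median, highest) in Snf5-null and 0.4242, 1.16 and 5.933 CPM in combined libraries. The groups did not overlap, and the log2 difference was -4.03 ± 0.7 (SE; 16.3-fold lower, adjusted p = 0.000172). Irf7, the transcription factor that amplifies type I interferon production, was at 29.64, 105.0 and 211.5 CPM in Snf5-null and 7.373, 20.51 and 45.98 CPM in combined libraries. Its ranges met at the low end of the Snf5-null group, with a log2 difference of -2.24 ± 0.45 (adjusted p = 0.000637). Irf1 fell by 1.32 on the log2 scale, the RNA sensor Dhx58 by 1.02 and Stat2 by 0.78. Dhx58 and Stat2 are the calls that depended most on single libraries, and they held in 20 and 24 of 31 alternative settings. Both were lost without Snf5-null TATCre N49, N43R or N51, combined TATCre 78780 or combined Myf5Cre N3, and Dhx58 also without N43L, combined N49 or 78774. Usp18, which trims Isg15 from proteins and damps the receptor, differed by -0.99 ± 0.5 (adjusted p = 0.104), the RNA sensor Ifih1 by -0.56 ± 0.39 (0.239), and Irf9 by -0.0 ± 0.25 (0.993). Stat2 thus passed the test and its partner Irf9 did not.

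Among the effectors, 15 of 19 fell. Oas3, an enzyme that makes the 2-5A signal for RNA decay (chr5:120753098-120777661, minus strand), was at 3.429, 21.53 and 45.74 CPM in Snf5-null and 0.3004, 0.4212 and 1.811 CPM in combined libraries. No combined library reached the lowest Snf5-null library, and the log2 difference was -5.19 ± 0.71 (36.5-fold lower, adjusted p = 1.43e-05). Ifit3, an RNA-binding antiviral protein (chr19:34583531-34588731, plus strand), was at 29.25, 48.89 and 89.92 CPM in Snf5-null and 0.1552, 2.203 and 6.017 CPM in combined libraries. The ranges lay far apart, at -4.34 ± 0.68 (20.2-fold lower, adjusted p = 6.27e-05). Its value is uncertain because 51.2% of the 50-base stretches of its transcripts also occur in other genes, Ifit3b above all.

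The other effectors that fell were Oas2 (log2 difference -4.15), Mx1 (-3.84), Ifit1 (-3.53), Ifi27l2a (-3.41), Oasl1 (-3.19), Ifi44 (-3.07), Ifit2 (-2.57), Oasl2 (-2.53), Rsad2 (-2.17), Parp14 (-2.06), Cmpk2 (-2.04), Mx2 (-1.6) and Xaf1 (-1.33). Mx1 and Mx2 belong to the dynamin-like GTPases, though Mx2 is annotated as a polymorphic pseudogene. Only their RNA was measured, which does not show that a working protein is made. Rsad2 is viperin, and Cmpk2 is its neighbour that makes nucleotide triphosphates. Ifit2 had the smallest adjusted p of the members (5.38e-07), at 65.76 to 139.1 CPM in Snf5-null and 8.86 to 35.45 CPM in combined libraries. The ranges did not overlap for 9 members, which were Zbp1, Oas3, Oasl1, Cmpk2, Parp14, Mx1, Ifit1, Ifit2 and Ifit3, and no GTPase was among them. How many of all genes had ranges apart was not computed, so this count has no background beside it.

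The 4 effectors that did not pass the test were Isg15, Oas1a, Ifi35 and Bst2. Bst2 (tetherin, which holds budding virus at the cell surface; chr8:71534255-71537456, minus strand) was at 75.16, 117.2 and 196.7 CPM in Snf5-null and 57.63, 97.77 and 199.1 CPM in combined libraries. The ranges nearly coincide, and the log2 difference was -0.24 ± 0.32 (adjusted p = 0.556). Oas1a differed by -0.36 ± 0.53 (0.586), Ifi35 by -0.31 ± 0.22 (0.254) and the ubiquitin-like Isg15 by -1.19 ± 0.58 (0.0948). Oas1a and Oas3 make the same kind of product and lie in 1 gene cluster on chromosome 5, yet 57.6% of the 50-base stretches of Oas1a also occur in its paralogs, so its count is less certain.

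Each of the 7 GTPases fell. Iigp1, which attacks the vacuoles of intracellular parasites (chr18:60376027-60392634, plus strand), was at 30.81, 84.97 and 500.9 CPM in Snf5-null and 1.164, 7.581 and 102.4 CPM in combined libraries. Its log2 difference was -3.65 ± 0.68 (adjusted p = 0.000314), and combined library 78780 alone reached into the Snf5-null range. Gbp5, a guanylate-binding protein that promotes inflammasome assembly, was at 8.079, 28.41 and 40.95 CPM in Snf5-null and 0.0606, 0.7833 and 105.0 CPM in combined libraries. Its highest value of any library was thus in a combined tumour, N49 of the TATCre group, and the log2 difference was -2.88 ± 0.82 (adjusted p = 0.00793). Gbp2 fell by 2.85 on the log2 scale, Irgm1 by 1.77, Gbp3 by 1.6, Gbp7 by 1.3 and Igtp by 0.79.

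**Figure D2:**
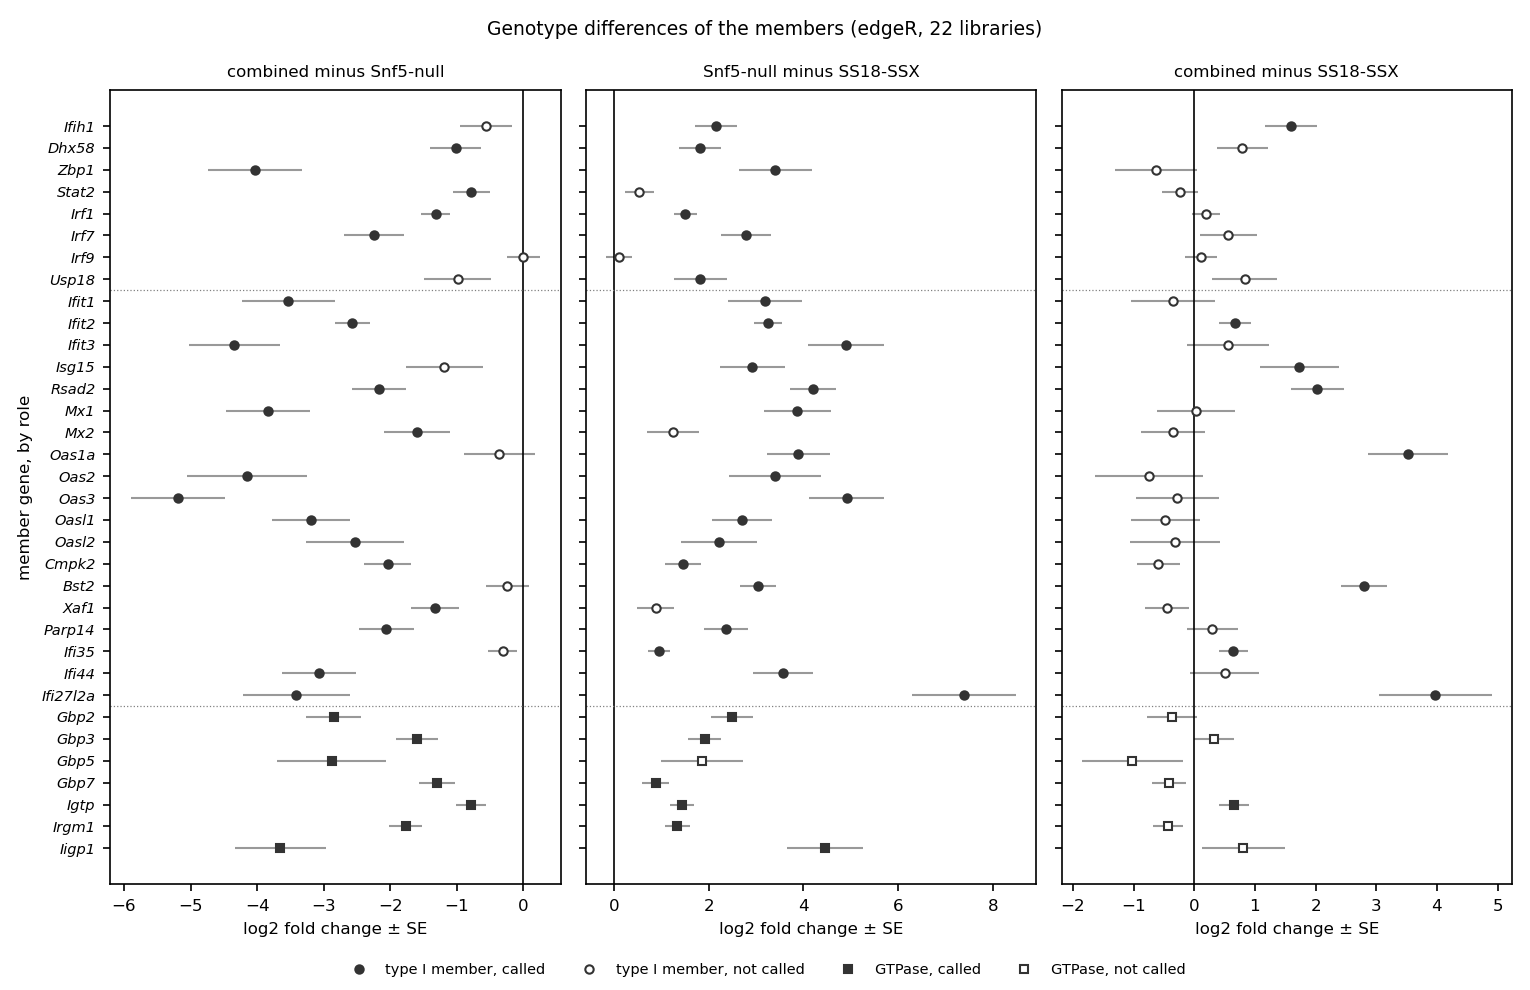
Log2 fold change ± SE of each member in 3 genotype comparisons that share libraries. Circles are type I members and squares are GTPases, and filled symbols passed the adjusted test. In the first panel 27 symbols are filled and left of 0, and in the third the filled symbols include Bst2 at 2.8 and Oas1a at 3.53.

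Split by Cre label within the same model, the count and the median both differed. Combined against Snf5-null tumours with Myf5Cre gave 27 lower and 0 higher (20 type I members and 7 GTPases), against 15.3% lower and 15.7% higher of all genes, with a median log2 fold change of -2.8 for type I members and -3.18 for the GTPases. The counts were 29 and 0 at an unadjusted p under 0.05, and the ranges of 32 of 34 members did not overlap. With so few libraries per group ranges separate easily, and the share of all genes with ranges apart was not computed. For the unadjusted counts within a Cre label the share over all genes is not given here. With TATCre 8 were lower and 0 higher, against 13.9% and 18.1% of all genes, and the medians were -1.0 and -0.37; at an unadjusted p under 0.05 the counts were 14 and 0. Those 8 were Oas3 (-3.84 ± 0.91), Ifit3 (-3.34 ± 0.9), Ifit1, Mx1, Ifit2, Ifi44, Cmpk2 and, as the single GTPase, Irgm1 (-0.94 ± 0.32, adjusted p = 0.0342). Gbp3 was at -0.01 ± 0.4 (adjusted p = 0.986) with TATCre and -3.18 ± 0.48 (9.12e-05) with Myf5Cre. Gbp5 was at 0.49 ± 0.99 (0.727) with TATCre and -6.25 ± 1.37 (0.00227) with Myf5Cre. Isg15 passed with Myf5Cre (-2.66 ± 0.88, adjusted p = 0.0287), and Dhx58 did not (0.133). The test of the Cre difference itself is given with the interaction below.

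Snf5-null tumours held more of nearly the whole set than tumours that carried the fusion alone. In Snf5-null against SS18-SSX tumours 29 of 34 members rose and 0 fell, against 22.3% and 25.9% of all genes. At an unadjusted p under 0.05 the counts were 32 and 0, where 10404 of 18929 genes passed in either direction. By DESeq2 they were 32 and 0, against 4831 higher and 5071 lower of 18749 genes. The median log2 fold change was 2.42 over the members and -0.06 over all genes. Of the type I members 23 of 27 rose with a median of 2.79, and of the GTPases 6 of 7 with a median of 1.86. Without N381 the count was 33 and without A it was 32. This comparison shares the Snf5-null libraries with the one above, so the same 8 libraries enter both.

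Ifi27l2a, a small mitochondrial membrane protein, had the largest difference. It was at 0.5876, 2.31 and 14.87 CPM in SS18-SSX and 100.2, 720.0 and 1064.0 CPM in Snf5-null libraries, and the groups did not overlap (log2 difference 7.38 ± 1.1, 166-fold higher, adjusted p = 3.76e-05). Oas3 was at 0.0, 0.5494 and 2.077 CPM in SS18-SSX libraries, with 0 counts in N428, and differed by 4.91 ± 0.79 (adjusted p = 7.41e-05). Among the sensors Zbp1 was at 0.1102, 0.5507 and 6.549 CPM in SS18-SSX libraries and differed by 3.4 ± 0.77 (adjusted p = 0.0014). Its SS18-SSX range stayed below the Snf5-null one, though without N381 its log2 difference was 5.26. Irf7 was at 5.252, 9.458 and 34.33 CPM in SS18-SSX libraries and differed by 2.79 ± 0.52 (adjusted p = 0.000274).

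Among the GTPases Iigp1 was at 0.772, 3.147 and 17.06 CPM in SS18-SSX libraries and differed by 4.46 ± 0.8 (22-fold higher, adjusted p = 0.00021). Gbp2 was at 13.18, 18.05 and 51.5 CPM in SS18-SSX and 59.25, 156.0 and 249.7 CPM in Snf5-null libraries, at 2.49 ± 0.45 (adjusted p = 0.000222). Both GTPases separated the groups. The members that did not pass were Irf9 (0.11, adjusted p = 0.748), Stat2 (0.54, 0.15), Xaf1 (0.88, 0.0663), Mx2 (1.25, 0.0672) and Gbp5 (1.86, 0.0797). The ranges did not overlap for 14 members, a count for which the share over all genes was not computed. Within Myf5Cre tumours 26 members rose and 0 fell, against 14.4% and 19.6% of all genes. There 31 and 0 had an unadjusted p under 0.05, and the share of all genes that did so is not given here.

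The remaining members that rose were the effectors Ifit3 (4.9), Rsad2 (4.2), Oas1a (3.89), Mx1 (3.87), Ifi44 (3.57), Oas2 (3.4), Ifit2 (3.25), Ifit1 (3.18), Bst2 (3.04), Isg15 (2.92), Oasl1 (2.71), Parp14 (2.36), Oasl2 (2.21), Cmpk2 (1.45) and Ifi35 (0.95), as log2 fold changes. The other regulators were Ifih1 (2.15), Usp18 (1.82), Dhx58 (1.81) and Irf1 (1.51), and the other GTPases Gbp3 (1.92), Igtp (1.44), Irgm1 (1.34) and Gbp7 (0.88). For 3 of the effectors the size rested on N381: without it Ifit1 was at 4.89, Oas2 at 5.67 and Oasl2 at 4.07.

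Combined and SS18-SSX tumours, which share the fusion, differed in a small and mixed part of the set. Of 34 members 9 rose and 0 fell, against 23.1% and 21.9% of all genes, with a median log2 fold change of 0.25 (all genes -0.09). The share of members that rose, 9 of 34, is near the background. The counts were 9 and 0 at an unadjusted p under 0.05, where 10109 of 18929 genes passed in either direction. By DESeq2 they were 6 and 0, against 4383 higher and 5131 lower of 18749 genes. Of the 9 members that rose, 8 were type I members (1 sensor and 7 effectors) and 1 was a GTPase. Without N381 the count was 13, without A 11, and without combined TATCre library 78777 it was 6. It was 5 without N428, N460, B or combined Myf5Cre N2. With no filter on low counts, and in fits to the compared groups alone or to the 3 genotypes alone, it was 5.

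Bst2 and Oas1a were the 2 members whose ranges did not overlap, again with no share over all genes computed. Oas1a was at 0.2175, 0.494 and 5.248 CPM in SS18-SSX and 11.42, 14.22 and 50.07 CPM in combined libraries (log2 difference 3.53 ± 0.66, 11.5-fold higher, adjusted p = 0.000403). Bst2 was at 4.774, 12.74 and 46.14 CPM in SS18-SSX and 57.63 CPM or more in combined libraries (2.8 ± 0.38, adjusted p = 3.82e-05). Both effectors failed the test in combined against Snf5-null tumours. Oas3 and Ifit3 passed that test, and their combined ranges overlapped the SS18-SSX ones. Oas3 differed between combined and SS18-SSX tumours by -0.28 ± 0.68 (adjusted p = 0.751) and Ifit3 by 0.56 ± 0.68 (0.513). Failing the test does not show that these levels were alike.

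Ifi27l2a was at 2.871, 35.13 and 531.9 CPM in combined libraries and differed from SS18-SSX by 3.97 ± 0.93 (adjusted p = 0.00238), with 1 combined library, TATCre 78777, far above the others. Ifih1, the long double-stranded RNA sensor MDA5, was at 17.82, 25.52 and 49.86 CPM in SS18-SSX and 25.16, 88.01 and 193.6 CPM in combined libraries (1.6 ± 0.43, adjusted p = 0.00608). Igtp, a GTPase of parasite vacuoles, was at 12.78, 16.21 and 32.25 CPM in SS18-SSX and 18.78, 26.92 and 51.44 CPM in combined libraries (0.65 ± 0.25, adjusted p = 0.0409). Igtp rose here in a class whose median was -0.37, and its call held in 17 of 30 alternative settings. The other calls were Rsad2 (2.03, held in 29 of 30), Isg15 (1.73, 20), Ifit2 (0.67, 15) and Ifi35 (0.64, 17). Without N381 Isg15 was at 2.78. Isg15, Ifi35, Igtp and Ifit2 each lost their call without N428, N460, B or combined Myf5Cre N2. Isg15, Ifi35 and Igtp also lost it without N2 of the SS18-SSX group or 78777, and at least 1 of the 4 without A, 78774, 78780 or combined Myf5Cre N1, N3 or N4.

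Within Myf5Cre tumours, where both genotypes share the Cre label, 2 members rose and 2 fell, against 15.5% and 16.9% of all genes. Bst2 (3.17 ± 0.54, adjusted p = 0.000792) and Oas1a (3.55 ± 0.93, 0.00867) rose, and Gbp5 (-3.67 ± 1.27, 0.0337) and Gbp7 (-1.18 ± 0.39, 0.0299) fell. The 2 that rose are type I members and the 2 that fell are GTPases, and both shares of the members are below those of all genes. At an unadjusted p under 0.05 the counts were 6 higher and 4 lower. Type I members made up 6 of the higher and 1 of the lower, and GTPases 3 of the lower. The share of all genes at that level is not given here. These 2 groups also differ in number series. Ifit2 changed sign there, at -0.06 ± 0.37.

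**Figure D3:**
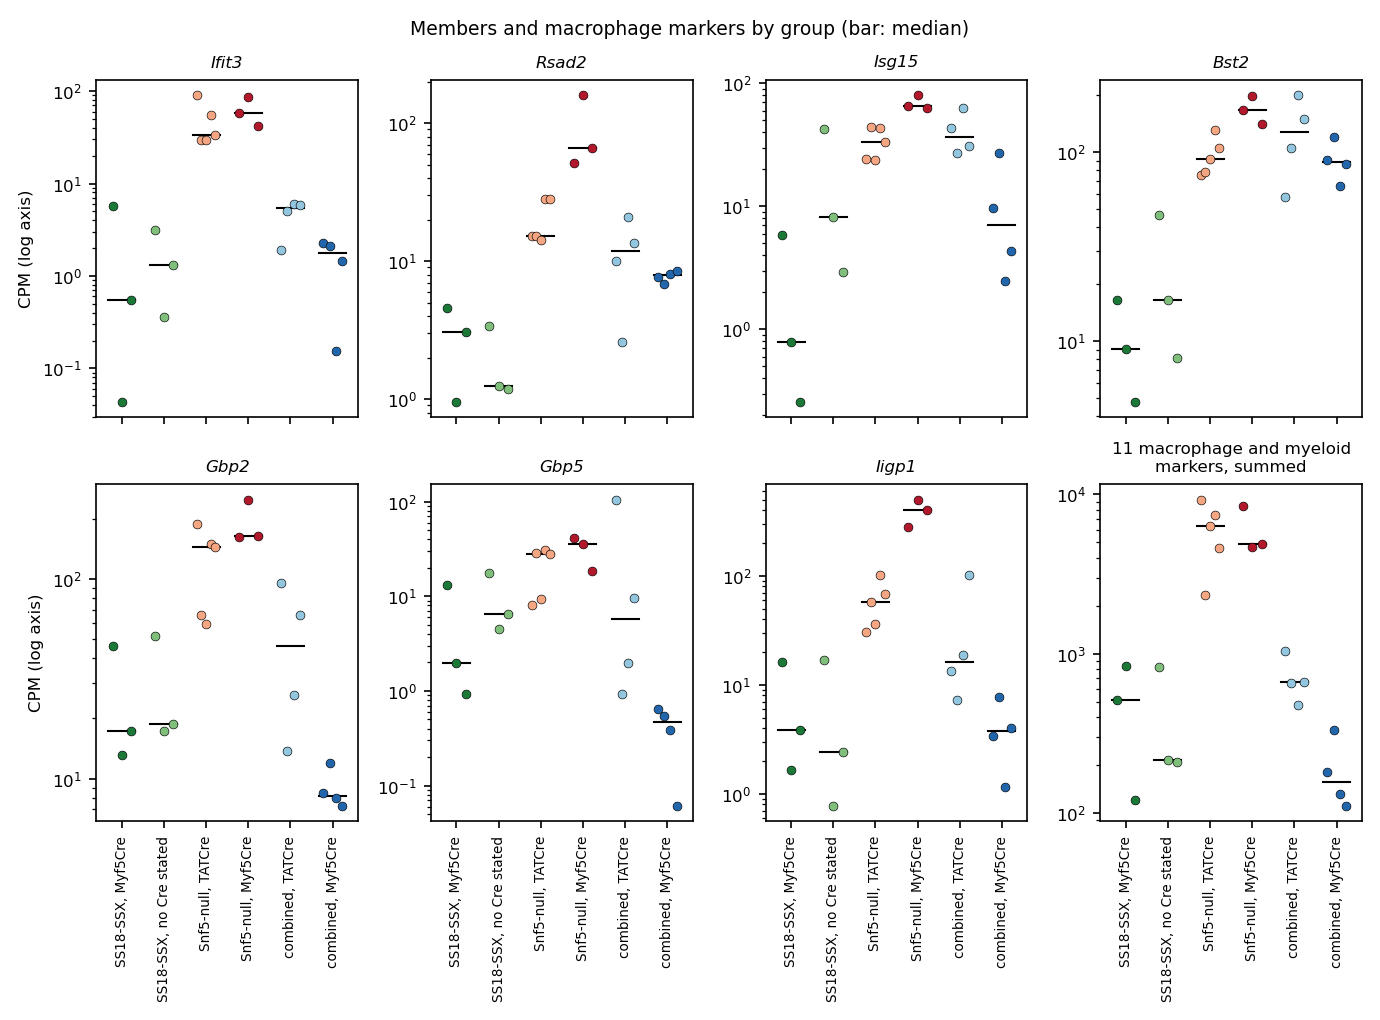
CPM (log axes) of 7 members, and of 11 macrophage and myeloid markers summed, in each library by group; the bar is the group median. Bst2 is at 57.63 CPM or more in the 8 combined libraries, while Ifit3 is at or under 6.017 there.

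The calls between the Cre labels fell mostly among the Gbp genes. In combined tumours 4 members were lower with Myf5Cre than with TATCre and 0 were higher, against 1.25% and 0.571% of all genes. The 4 were the GTPases Gbp2, Gbp3, Gbp5 and Gbp7, which lie in 1 cluster (chr3:142493978-142638008). Igtp, Irgm1 and Iigp1, which lie elsewhere, were not called. At an unadjusted p under 0.05 the counts were 13 lower and 0 higher (6 of 7 GTPases and 7 of 27 type I members). Over all 18929 genes 3258 passed in either direction. DESeq2 called 6 members lower and 0 higher, against 1081 and 382 of 18749 genes. The median log2 fold change was -2.0 for the GTPases, -0.73 for type I members and -0.06 for all genes. Each call of the 4 was lost in at least 1 of the settings that leave out a library: the count was 0 without TATCre library N49 or without any one of the 4 Myf5Cre libraries, and 0 in a fit to the 2 groups alone.

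Gbp5 was at 105.0 (N49), 0.9249 (78774), 1.986 (78777) and 9.613 CPM (78780) with TATCre. With Myf5Cre it was at 0.6416, 0.5417, 0.388 and 0.0606 CPM in N1 to N4. The groups did not overlap, with N49 far above the rest, and the log2 difference of -6.13 ± 1.35 (adjusted p = 0.0278) was -3.32 without it. Gbp2 was at 95.19, 13.69, 26.23 and 65.71 CPM with TATCre and 8.448, 11.92, 7.994 and 7.271 CPM with Myf5Cre in the same order of libraries. These ranges did not overlap either (-2.49 ± 0.57, adjusted p = 0.0346). Gbp3 (-2.0 ± 0.44, adjusted p = 0.0287) was at 37.2, 32.37, 10.75 and 48.29 CPM against 6.597 to 9.932 CPM, and Gbp7 differed by -1.53 ± 0.38 (0.0428). Library 78777 was highest of its group for 16 of 27 type I members and for 0 of 7 GTPases, while N49 and 78780 were highest for 3 and 4 GTPases.

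In Snf5-null tumours 1 member was higher with Myf5Cre and 0 were lower, against 1.78% and 3.19% of all genes. At an unadjusted p under 0.05 the counts were 7 and 0. Over all 18929 genes 3824 passed in either direction, so 7 of 34 members is near that share. DESeq2 called 2 and 0, against 690 higher and 1566 lower of 18749 genes. The member called by edgeR was Rsad2, at 15.23, 15.32, 14.21, 28.35 and 28.21 CPM with TATCre (N1, N49, N43L, N43R, N51) and 51.18, 159.1 and 65.76 CPM with Myf5Cre (N30, N31, N33). The ranges did not overlap, and the log2 difference was 2.18 ± 0.54 (adjusted p = 0.0255). The count was 0 without TATCre N49 or N43L or Myf5Cre N31 or N33, 2 without SS18-SSX A or combined 78780, and 6 in a fit to the 2 groups alone. Iigp1 was at 30.81, 57.55, 36.12, 102.2 and 67.78 CPM with TATCre and 281, 500.9 and 401.6 CPM with Myf5Cre, apart in range but not past the test (2.74 ± 0.88, adjusted p = 0.0774).

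The test of whether the Cre difference itself depended on genotype called 4 members lower and 0 higher, against 1.1% and 1.32% of all genes, and these were GTPases too. Gbp5 was at -6.74 ± 1.64 (adjusted p = 0.0364), Iigp1 at -5.85 ± 1.29 (0.0239), Gbp3 at -3.17 ± 0.61 (0.0132) and Gbp2 at -3.15 ± 0.77 (0.0375), as the log2 Myf5Cre difference in combined minus that in Snf5-null tumours. The median was -3.15 for the GTPases, -1.76 for type I members and -0.04 for all genes. At an unadjusted p under 0.05, 18 members were lower (7 of 7 GTPases and 11 of 27 type I members) and 0 higher. Over all 18929 genes 3451 passed in either direction. DESeq2 called 8 members lower and 0 higher, against 656 and 838 of 18749 genes. The count was 0 without Myf5Cre library N31 of Snf5-null tumours, 1 without N33 or combined Myf5Cre N3 or N4, and 2 without Snf5-null N49, N43L, N43R, N51 or N30 or combined Myf5Cre N1 or N2. Gbp3 lost its call in the setting without N31 alone, and Gbp5 was at -3.95 without combined N49. Whether the GTPases differed from the type I members as a class was not tested.

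**Figure D4:**
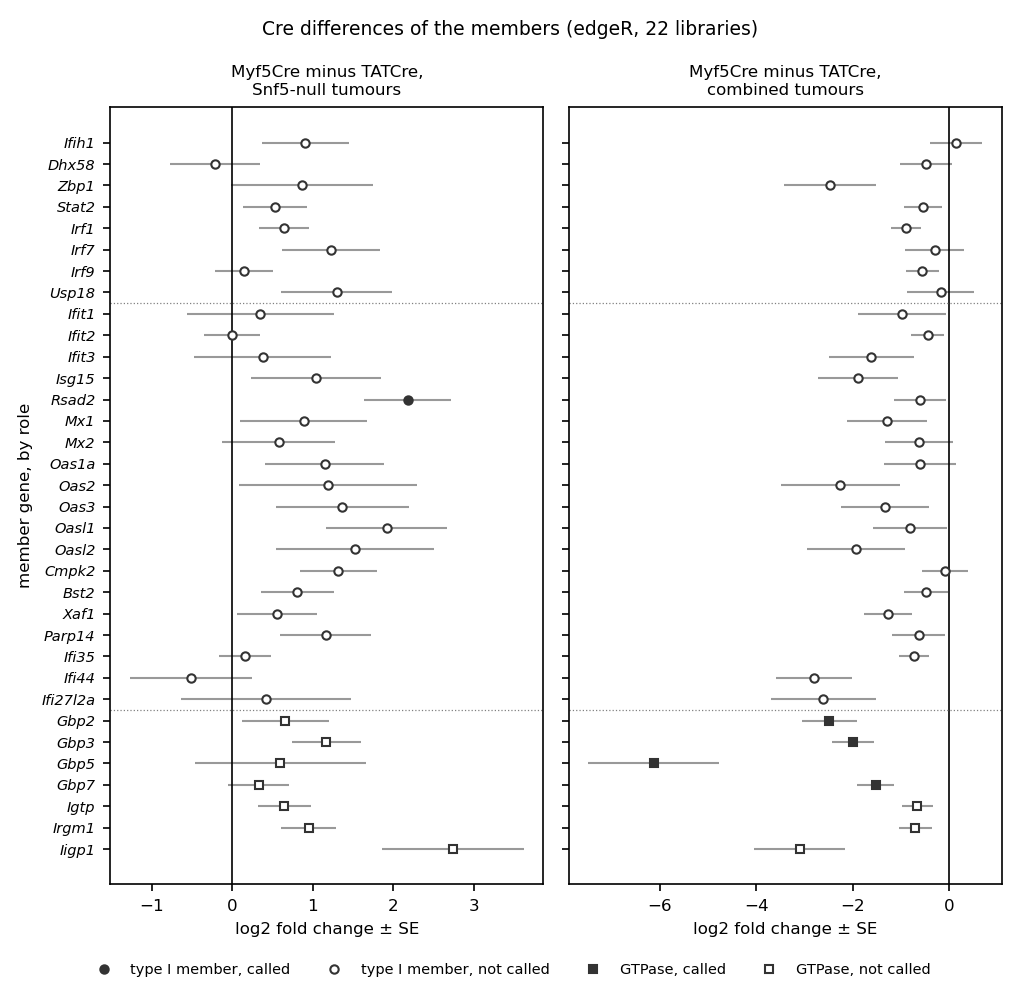
Log2 fold change ± SE of each member between Myf5Cre and TATCre tumours, for Snf5-null (left) and combined tumours (right). Filled symbols passed the adjusted test: Rsad2 on the left at 2.18, and Gbp2, Gbp3, Gbp5 and Gbp7 on the right.

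The 2 groups of SS18-SSX tumours gave 0 members higher and 0 lower by edgeR, against 1.25% and 0.866% of all genes. At an unadjusted p under 0.05 the counts were 1 higher (Ifit2) and 3 lower (Isg15, Bst2, Ifi35), where 3122 of 18929 genes passed in either direction. DESeq2 called 0 and 1, against 772 higher and 599 lower of 18383 genes. Isg15 was at 5.805, 0.783 and 0.2571 CPM in the Myf5Cre libraries and 42.75, 8.255 and 2.948 CPM in A, B and N2. Without N381, 3 members were lower. These groups differ in number series as well as in the Cre label, so the 2 cannot be told apart.

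Each class was also averaged within a library. As the mean log2 CPM over the class, SS18-SSX libraries were at 2.487 ± 1.176 for type I members and 3.862 ± 0.8051 for GTPases (SD, n = 6). Snf5-null libraries were at 5.508 ± 0.6115 and 5.97 ± 0.6963 (n = 8). Combined TATCre libraries were at 3.905 and 4.725 on average, and combined Myf5Cre libraries at 2.855 and 2.82. The GTPase mean exceeded the type I mean by 0.85 to 1.89 in SS18-SSX libraries and by 0.12 to 0.65 in Snf5-null libraries. It lay below it in 3 libraries, which were combined 78777 (-0.39), N1 (-0.38) and N2 (-0.19). CPM is not per length, so the classes are not ranked within a library, and what is described is how their difference varied between libraries.

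**Figure D5:**
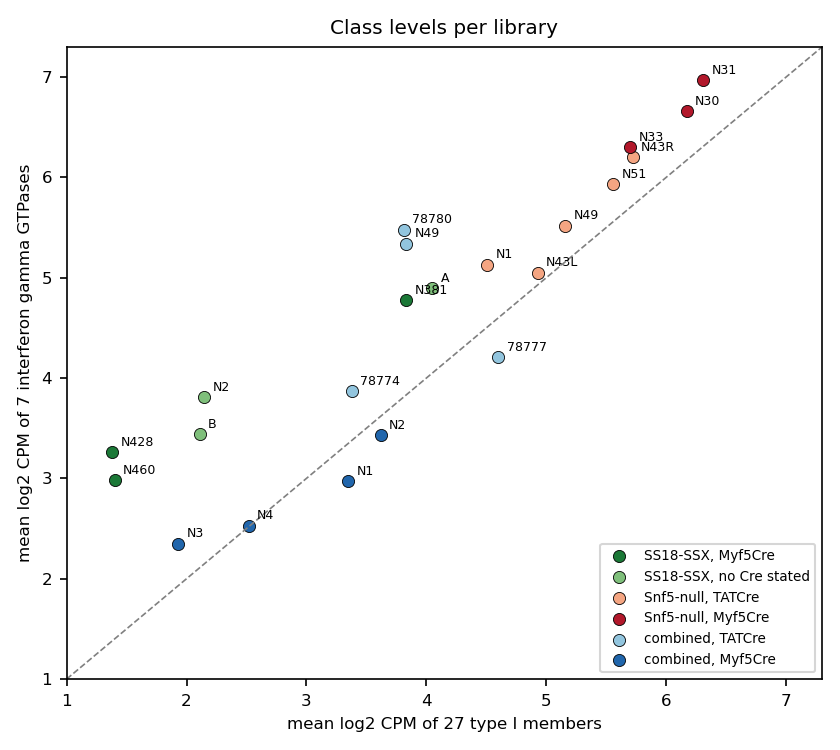
Mean log2 CPM of the 27 type I members (x) and of the 7 GTPases (y) in each library, with the line of equality dashed. Snf5-null libraries lie at the upper right close to the line, SS18-SSX libraries lie above it, and combined Myf5Cre libraries lie at the lower left on or near it.

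Per length, as mean RPKM (CPM per kilobase of exon), Ifi27l2a led in Snf5-null tumours at 1518, followed by Bst2 at 136.1, and both groups of these tumours had that order. Within the combined tumours the order differed between groups. Ifi27l2a was at 363.5 and Bst2 at 141.3 RPKM with TATCre, where library 78777 carried the Ifi27l2a mean (531.9 CPM, against a median of 35.13 over the 8 combined libraries). With Myf5Cre, Bst2 was at 100.7 and Ifi27l2a at 59.4 RPKM, the latter with its highest library at 79.57 CPM against a group median of 13.78. In SS18-SSX tumours Irf9 led with Myf5Cre at 14.82 RPKM, followed by Ifi35 at 12.39 and Bst2 at 11.24, and Isg15 was at 3.018. In the other SS18-SSX group Bst2 led at 26.07, followed by Isg15 at 23.79 and Ifi35 at 22.12, and the Isg15 mean was carried by library A (42.75 CPM, against 8.255 and 2.948). Oas3 was last in all 4 of these combined and SS18-SSX groups, at 0.05148 to 0.1498 RPKM. It was last in the Snf5-null TATCre group too, at 1.899 RPKM, while Mx2 was last in the Snf5-null Myf5Cre group at 3.764. Neighbours in these orders were not tested against each other.

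The interferons themselves were close to undetected. None of 10 ligand genes passed the filter, and the summed count of the 10 was 9 in SS18-SSX, 69 in Snf5-null and 17 in combined libraries. Ifnb1 had 34 counts in all and Ifng 37. A brief or local ligand signal was not detectable at this depth.

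For the pathway and marker lists below, the shares of all genes higher and lower were 29.1% and 20.5% in combined against Snf5-null tumours. They were 23.1% and 21.9% in combined against SS18-SSX, and 22.3% and 25.9% in Snf5-null against SS18-SSX tumours. Of the receptors and kinases, 8 of 10 were lower and 0 higher in combined against Snf5-null tumours. Il10rb, a chain of the lambda interferon and interleukin 10 receptors, was at 37.23 to 80.52 CPM in Snf5-null and 2.941 to 32.66 CPM in combined libraries (-3.11 ± 0.29, adjusted p = 2.19e-07). Ifngr1, the ligand-binding chain for interferon gamma, was at 113.1 to 251.0 against 15.83 to 54.25 CPM (-2.36 ± 0.23, adjusted p = 4.54e-07). Neither pair of ranges overlapped. Between combined and SS18-SSX tumours 1 was higher and 3 were lower, led by Ifnlr1 (-2.2 ± 0.56) and Il10rb (-0.81 ± 0.28). Between Snf5-null and SS18-SSX tumours 6 were higher and 1 lower, led by Ifngr1 (2.51 ± 0.26) and Il10rb (2.31 ± 0.31).

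Of 7 negative regulators, 1 rose (Trim24, 0.75) and 3 fell in combined against Snf5-null tumours, led by the phosphatase Ptpn6 (-3.78 ± 0.36), which is abundant in blood cells, and Irf2 (-1.19 ± 0.26). Against SS18-SSX 1 rose and 3 fell, with Irf2 at -0.85 ± 0.27 and Ptpn2 at 0.66 ± 0.2. Snf5-null against SS18-SSX gave 1 and 1, Ptpn6 at 3.17 ± 0.4 and Trim24 at -1.32 ± 0.19.

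Of 17 nucleic acid sensing genes tested, 10 fell and 0 rose in combined against Snf5-null tumours. Tlr9, a sensor of CpG DNA in endosomes, was at 7.091 to 44.28 against 0.0 to 3.075 CPM (-4.94 ± 0.72), and Tmem173, which encodes STING, at 13.38 to 72.41 against 1.087 to 5.549 CPM (-4.03 ± 0.39). Against SS18-SSX, 3 rose and 7 fell, led by the kinase Ikbke (-1.95 ± 0.41) and Tlr9 (-1.89 ± 0.68). Snf5-null against SS18-SSX gave 10 higher and 2 lower, led by Tlr7 (3.52 ± 0.51) and Tlr9 (3.05 ± 0.73).

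Other interferon-induced genes followed the effectors in combined against Snf5-null tumours, with 25 of 30 lower and 1 higher (Nmi, 0.73). The leading ones were Ifi203 (-5.15 ± 0.45), a DNA-binding family member, and the Schlafen gene Slfn8 (-4.93 ± 0.67). Against SS18-SSX 4 of 30 rose and 6 fell, neither above the share of all genes, with Trim30a at 1.85 ± 0.43 and Helz2 at -1.8 ± 0.64. Snf5-null against SS18-SSX gave 22 higher and 0 lower, led by Ifi204 (4.55 ± 0.67) and Trim30a (4.31 ± 0.48).

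Other interferon gamma targets gave 15 of 22 lower and 0 higher in combined against Snf5-null tumours. Ido1, which breaks down tryptophan, had 0 counts in each combined library and 0.05463 to 2.372 CPM in Snf5-null libraries, and Tgtp1 differed by -4.81 ± 0.93. Against SS18-SSX 3 rose and 6 fell. Those that rose were Cxcl11 (4.38 ± 1.55, from 0.0 to 92.3 CPM among combined libraries) and the immunoproteasome subunits Psmb8 and Psmb9. Snf5-null against SS18-SSX gave 15 higher and 0 lower, led by the chemokine Cxcl10 (4.95 ± 1.16) and Gbp6 (3.6 ± 0.7).

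Between the Cre labels in combined tumours, 3 of these 22 targets were lower with Myf5Cre, Gbp2b (-6.28 ± 1.38), Gbp4 (-3.74 ± 0.71) and Gbp8, which are Gbp genes like the members called there. Of the 30 other interferon-induced genes 5 were lower too, led by Helz2 (-4.02 ± 0.95) and Ifitm3 (-3.34 ± 0.63). In Snf5-null tumours 1 of each list was higher with Myf5Cre, Ido1 and Pml. The interaction called 5 of 22 targets lower, led by Tgtp1 (-8.49 ± 1.83) and Cxcl10 (-8.14 ± 1.92), and 5 of 30 interferon-induced genes, led by Helz2 (-7.0 ± 1.28) and Ifi47 (-4.37 ± 1.09). Over all genes 1.25% were lower with Myf5Cre in combined tumours, 1.78% higher in Snf5-null tumours and 1.1% lower for the interaction. These list counts are not given with single libraries left out, which ended the calls of members in some settings. The chemokine gene Cxcl9 reached 569.0 CPM in 1 combined TATCre library, where the median of the group was 1.002.

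Leucocyte transcripts differed between Snf5-null and the other tumours in the same direction as most members. Of 4 pan-leucocyte markers 4 fell and of 11 macrophage and myeloid markers 11 fell in combined against Snf5-null tumours, and the same numbers rose in Snf5-null against SS18-SSX tumours, with 0 in the other direction. Between combined and SS18-SSX tumours 0 of both lists passed in either direction; at an unadjusted p under 0.05, 1 macrophage marker was lower, and DESeq2 called that number too. Other immune markers were lower there: by edgeR 6 of 6 B and plasma cell, 3 of 6 dendritic cell, 1 of 2 plasmacytoid dendritic cell, 3 of 8 T cell, 1 of 6 NK cell and 1 of 5 neutrophil markers were lower, and 1 T cell marker was higher. At an unadjusted p under 0.05 the lower counts were 6, 5, 2, 5, 1 and 1, which DESeq2 gave too, and 2 neutrophil markers were higher by both. Over all genes 21.9% were lower by edgeR. The B and plasma sum was 583.1 and 403.7 CPM in N381 and A and at most 8.492 in other SS18-SSX libraries, against 0.4848 to 9.812 in combined libraries. The plasmacytoid sum was 22.08 and 11.48 in N381 and A and at most 0.6237 in the others, against 0.0 to 4.906. Those marker counts are not given without N381 or A. The summed macrophage markers were at 2340 to 9264 CPM in Snf5-null, 121.1 to 841.1 in SS18-SSX, 476.1 to 1042 in combined TATCre and 110.5 to 330.9 in combined Myf5Cre libraries. The 2 combined groups did not overlap in this sum. In combined TATCre libraries N49, 78774, 78777 and 78780 it was 1042, 655.0, 476.1 and 664.7 CPM. The GTPase mean there was 5.34, 3.87, 4.21 and 5.48 log2 CPM. By edgeR 0 of 4 leucocyte and 1 of 11 macrophage markers were lower with Myf5Cre in combined tumours, against 1.25% of all genes. The counts were 3 and 10 at an unadjusted p under 0.05 and 3 and 7 by DESeq2. In Snf5-null tumours the macrophage sum was 2340 to 9264 CPM with TATCre and 4690 to 8413 with Myf5Cre, and the ranges overlapped. The leucocyte markers summed to 334.5 to 1252 CPM in Snf5-null, 16.6 to 161.4 in SS18-SSX and 18.97 to 143.2 in combined libraries, and no leucocyte or macrophage marker was at 0 in any library. Bst2 and Oas1a failed the test in combined against Snf5-null tumours, which differed in both sums. Within a genotype the macrophage sum and the members did not always go together. Among SS18-SSX libraries N428 had the highest sum (841.1 CPM) and the lowest type I mean (1.38 log2 CPM), while A was high in both (826.3 and 4.05). Among Snf5-null TATCre libraries N1 had the highest sum (9264 CPM) and the lowest type I mean (4.51). The part of leucocytes and macrophages in the results was not tested.

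Markers of other cell types were mixed. In combined against Snf5-null tumours the numbers that rose and fell were 0 and 5 of 5 tested for neutrophils, 0 and 6 of 6 for dendritic cells, 0 and 2 of 2 for plasmacytoid dendritic cells, 0 and 6 of 8 for T cells, 0 and 4 of 6 for NK cells and 0 and 5 of 6 for B and plasma cells. They were 1 and 2 of 6 for endothelium, 1 and 3 of 5 for fibroblasts, 0 and 3 of 5 for skeletal muscle, 1 and 0 of 5 for epithelium, 3 and 0 of 3 for red blood cells, 0 and 0 of 3 for adipocytes and 3 and 0 of 3 for synovial sarcoma. NK markers summed to 20.35 CPM in combined library 78780, which also had high Iigp1, against at most 1.11 in the other combined libraries. Each direction given as 0 in this comparison, for these lists and the pathway lists above, was also 0 at an unadjusted p under 0.05 and by DESeq2. Between Snf5-null and SS18-SSX tumours the same held for the pathway lists, except that 1 interferon gamma target was lower by both. Summed neutrophil markers did not overlap between the Snf5-null groups, reaching 604.2 CPM with Myf5Cre and 51.33 with TATCre.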

How the data were processed

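Per the labels, 22 mouse tumour samples were processed with RNeasy Mini columns and the strand-keeping TruSeq mRNA kit. STAR 2.7.5a, cutadapt, RSEM, featureCounts, DESeq2 and the mm10 genome are named, without roles, in the submitters' processing notes. The file the authors deposited holds raw integer counts of 48440 Ensembl IDs, of which 48058 were matched to a symbol in GENCODE M21.

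Libraries were put into 6 groups by their titles and genotype labels. Genes were kept by edgeR's filterByExpr (minimum count 10, minimum total 15), which left 18929 genes with 99.91% of the counts. edgeR 4.0.16 (R 4.3.3) fitted 1 quasi-likelihood model over the 22 libraries with TMM scaling, and 7 contrasts were tested with Benjamini-Hochberg adjustment over all genes tested. Calls are adjusted p under 0.05. Genotype contrasts compare means of group means. SE is the log2 fold change divided by the square root of F, and log2 CPM used a prior count of 2. CPM is per 1000000 counts of the genes tested after TMM scaling, and counts limit precision for members with few reads. The procedure was tested on simulated data. Alternatives were DESeq2 1.42.0, its size factors in edgeR, no filter, fits to fewer groups and each Cre label alone. Others were an added fold threshold of 1 log2 unit and leaving out each of 22 libraries. Of pairs of like libraries, N43L with N43R and N31 with N33 were summed (Pearson correlation of log2 CPM 0.9821 and 0.9868). Combined Myf5Cre N3 and N4 were about as alike (0.9837) and were not summed, so the results with that pair as 1 library are not known.

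The members, the pathway lists (ligands, receptors and Janus kinases, negative regulators, nucleic acid sensing, other interferon-induced genes, other interferon gamma targets) and the cell type markers were chosen with earlier results of these data known. All 34 members are named. Given in full are the 2 called members with the largest change per comparison and role, and a few singled out after their values were seen (Ifit2, Bst2, Gbp3, Isg15, and Iigp1 for Cre in Snf5-null tumours).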

Additional observations from a re-analysis of the deposited data

Results flagged for a closer look

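Each member was checked for a library far from the others in the groups of 4 or 5 libraries, 102 checks in all, of which chance flags about 1 in 20, and 9 were flagged. High values in combined TATCre libraries made up 3 of them. Dhx58 was at 55.38 CPM in 78777 against 21.6 to 22.38 in the others, Oasl2 was at 74.78 in 78777 against 14.24 to 16.07, and Gbp7 was at 96.0 in N49 against 44.75 to 50.62. In N49 Ifit3 was low, at 1.904 CPM against 5.056 to 6.017.

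In Snf5-null TATCre tumours Dhx58 was at 80.32 CPM in N51 against 48.24 to 52.74. N1 of that group was low for Mx2, at 3.081 against 9.912 to 11.2, and for Ifi27l2a, at 100.2 against 602.4 to 1058. In combined Myf5Cre tumours Zbp1 was at 0.9631 CPM in N2 against 0.4242 to 0.4812, and Oasl1 was at 0.6985 in N3 against 1.764 to 1.866.

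The Myf5Cre difference was tested for a dependence on genotype, and edgeR's interaction term was past the threshold for 4 GTPases: Gbp5 at -6.74 (adjusted p = 0.0364), Iigp1 at -5.85 (0.0239), Gbp3 at -3.17 (0.0132) and Gbp2 at -3.15 (0.0375), on the log2 scale.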

How the results depend on the processing

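Settings that left out 1 library gave 25 to 29 members lower in combined against Snf5-null tumours, 28 to 33 higher in Snf5-null against SS18-SSX tumours, and 5 to 13 higher and 0 to 1 lower in combined against SS18-SSX tumours (5 without N428, N460, B or combined Myf5Cre N2, and 1 lower without combined TATCre N49). They gave 0 to 2 higher with Myf5Cre in Snf5-null tumours, 0 to 5 lower in combined tumours, 0 to 5 lower for the interaction (0 without N31, 1 without N33 or combined Myf5Cre N3 or N4) and 0 to 3 lower between the SS18-SSX groups (3 without N381).

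The count for combined against Snf5-null was 8 with the TATCre groups alone, where Gbp5 reversed to 0.49. For combined against SS18-SSX, 5 were higher with no filter on low counts, in the 3 genotypes alone and in the compared groups alone, and 2 were higher and 2 lower with the Myf5Cre groups alone, where Ifit2 reversed to -0.06. The Cre count in Snf5-null tumours was 6 in the compared groups alone, 2 by DESeq2 and 0 with N31 and N33 summed. In combined tumours it was 0 in the compared groups alone. The interaction count was 8 in the compared groups alone and by DESeq2, 2 with N43L and N43R summed and 1 with N31 and N33 summed. DESeq2 called 1 member lower between the SS18-SSX groups. Calls present in all 31 alternatives for combined against Snf5-null were those of Ifit1, Ifit2, Ifit3, Mx1, Oas3, Cmpk2, Ifi44 and Irgm1. These do not include the fold threshold of 1 log2 unit, which gave 25 lower in combined against Snf5-null (ending the calls of Stat2 at -0.78 and Igtp at -0.79), 6 higher in combined against SS18-SSX (ending Ifit2 at 0.67, Igtp at 0.65 and Ifi35 at 0.64) and 27 higher in Snf5-null against SS18-SSX (ending Ifi35 at 0.95 and Gbp7 at 0.88).

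DESeq2's size factors in edgeR moved the median log2 fold change of all genes by -0.115 in combined against Snf5-null, from 0.235 to 0.12, and no member changed sign there. No paired analysis was possible because any 2 groups share at most 1 tag number.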
